A study of Mus musculus with 4 samples.

Results

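The genes described here encode the machinery that copies DNA in mouse embryonic stem cells (ESCs). They are 46 named genes, all of which were found once among the 22380 protein-coding genes of the GENCODE M1 annotation of the mm9 genome. Sorted by role, 9 genes act in origin recognition and licensing (Orc1 to Orc6, Cdc6, Cdt1 and Gmnn) and 11 belong to the replicative helicase (Mcm2 to Mcm7, Cdc45 and Gins1 to Gins4). A further 4 encode the kinase that fires origins and other Mcm proteins (Cdc7, Dbf4, Mcm8 and Mcm10), and 11 encode subunits of the polymerases and the primase (Pola1, Pola2, Prim1, Prim2, Pold1 to Pold3 and Pole to Pole4). The sliding clamp and its loader account for 6 genes (Pcna and Rfc1 to Rfc5), and single-strand binding and Okazaki fragment maturation for 5 (Rpa1 to Rpa3, Fen1 and Lig1). The genes were listed by name and not by any value measured in these cells. The list was drawn up with earlier results of these data known.

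Myc and its partner Max were mapped by ChIP-seq in E14 mouse ESCs, with 4 libraries and 1 library per ChIP. For the Bio-Myc ChIP, streptavidin beads pulled down biotin-tagged Myc from a single stable clone, in which the tag is at the N-terminus of Myc, the transgene is carried by the pEF6 expression vector and the BirA ligase attaches the biotin. Tagged Myc is therefore made in addition to the cells' own Myc and is not under the control of the Myc promoter. The Max ChIP used an antibody against the endogenous protein, and the IgG ChIP a non-specific antibody, both in wild type parental cells. The mock ChIP used streptavidin beads alone, in parental wild type cells according to the sample labels and in BirA-ES cells without tagged protein according to the study's methods. Peak lists of Bio-Myc and Max are analysed here, and the mock and IgG libraries entered them only as the controls of the peak calling. No drug, knockdown or time course was part of these 4 samples. As each ChIP was sequenced once, differences could not be weighed against replicate cultures, and the number of reads per library is unknown. The intervals given below are 95% Wilson intervals, which cover counting error only.

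Before a cell divides, the origin recognition complex marks the places where copying can begin, and Cdc6 and Cdt1 load the Mcm2 to Mcm7 ring there. Kinases then convert the ring, with Cdc45 and GINS, into the active helicase, and polymerases held by the Pcna clamp extend both strands. Myc binds DNA as a dimer with Max, best at the E-Box CACGTG, and also at variants such as CACGCG. Members of the E2F family are the classical regulators of these genes at the entry into S phase, and they bind words such as TTTCCCGC and TTTGGCGC. Mouse ESCs have a very short G1 phase and spend much of their cycle in S phase.

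The sequences that carry the comparison of Myc with Max are the E-Boxes inside the peaks. CACGTG was found in the Bio-Myc promoter peaks of 7 replication genes, and the word nearest to the centre of each peak is shown with 12 bases to either side, read from mm9 on the strand of the gene with the E-Box in capitals. The coordinates are those of the capitals.

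Orc1, chr4:108252213-108252218, intron, 147 bp downstream of a transcription start site (TSS): acggactgcataCACGTGcacctagggccg

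Orc2, chr1:58560813-58560818, intron, 1135 bp downstream: acgcttgcaggaCACGTGcttttagccact

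Cdt1, chr8:125091539-125091544, outside the gene, 376 bp upstream: agtgtctcctttCACGTGattgcctctttg

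Mcm8, chr2:132641764-132641769, outside the gene, 113 bp upstream: cggcaccgccccCACGTGctgcacgccgct

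Pola2, chr19:5964422-5964427, outside the gene, 221 bp upstream: ccgtgctggacaCACGTGtcagtcactgca

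Rfc1, chr5:65727109-65727114, outside the gene, 205 bp upstream: ctgcccttgcagCACGTGcgtgtactgcag

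Rpa1, chr11:75161948-75161953, outside the gene, 127 bp upstream: cctcggaagagtCACGTGctctgcctgccg

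Of these 7 words, 6 also lay inside the Max peak of the same gene, and the exception was that of Orc2. Max peaks without a Bio-Myc peak held CACGTG at only 3 replication genes, and these are shown for comparison.

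Gins4, chr8:24348318-24348323, outside the gene, 183 bp upstream: gccgaacgccccCACGTGgccgtcccgaga

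Pola1, chrX:90877377-90877382, intron, 72 bp downstream: ccatgcttagggCACGTGgttgggaatgtg

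Pold1, chr7:51803606-51803611, intron, 492 bp downstream: cgctatgatgcgCACGTGgagatctgagga

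A Bio-Myc peak lay within 1 kb of an annotated TSS of 18 of the 46 replication genes, which is 39.1% (26.4 to 53.5%). Among the 22334 other protein-coding genes the share was 14.6%, below that interval. Max occupied the promoters of 34 of the 46 genes, or 73.9% (59.7 to 84.4%), compared with 34.7% of the other protein-coding genes. Both proteins were found at 18 genes (39.1%, compared with 12.6% of the other genes), so that every replication gene with a Bio-Myc peak also had a Max peak. Of the other Bio-Myc-bound genes, 86.4% had one, which lies inside the interval of the 18 of 18 (82.4 to 100%). This overlap depends on the length of the Max list, since only 11 of the 46 genes had both (23.9%, against 8.3% of the other genes) when its 3962 highest-scoring peaks alone were kept. Max without Bio-Myc was found at 16 genes (34.8%, 22.7 to 49.2%, against 22.1% of the other genes), and 12 genes had neither peak (26.1%, 15.6 to 40.3%, against 63.3%). For Max without Bio-Myc, the background was inside the interval off chromosome 8 and at CpG-rich promoters, as given below. Bio-Myc without Max was seen at 0 of the 46 genes, with an upper bound of 7.71%, against 1.98% of the other genes. No test was run on these shares, because genes are not replicates of a ChIP.

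**Figure D1:**
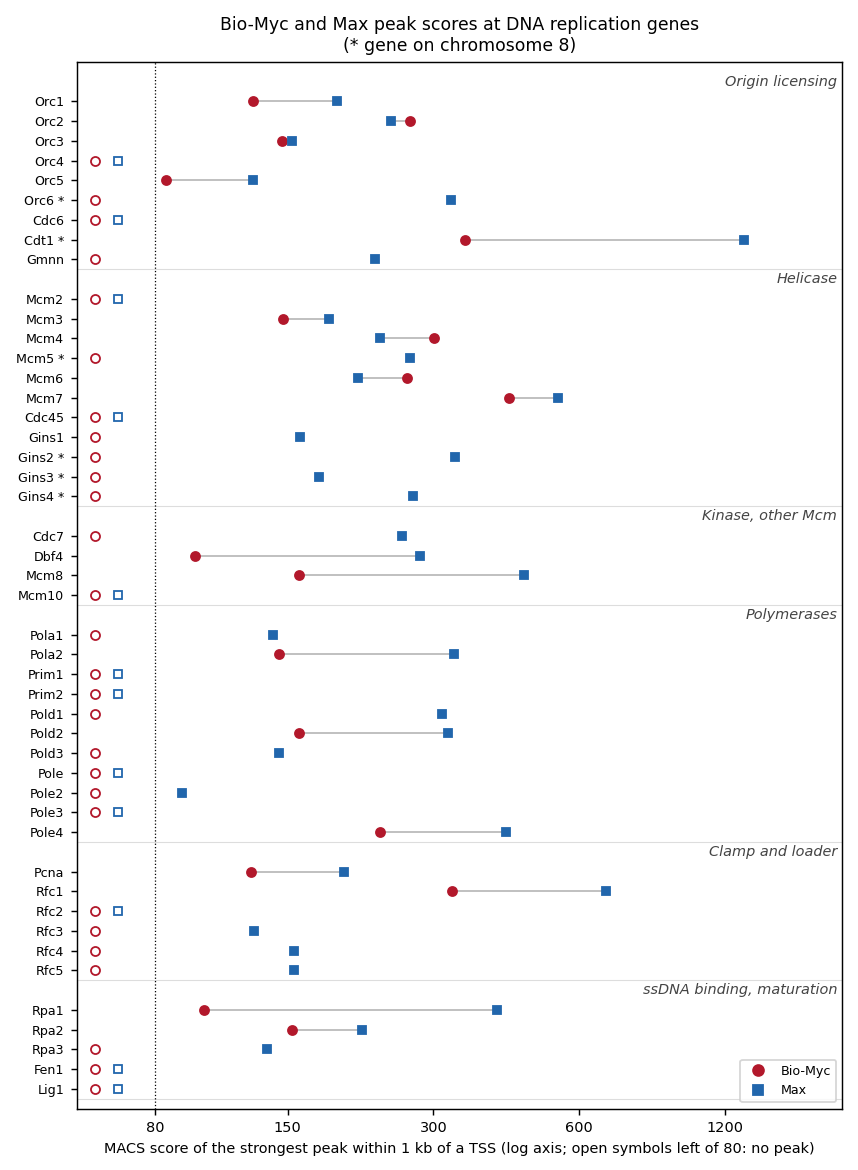
MACS score of the strongest Bio-Myc peak (circles) and Max peak (squares) within 1 kb of a TSS for each of the 46 replication genes, grouped by role, on a log axis; open symbols left of the dotted line at 80, the lowest score in the lists, mark genes without a peak, and asterisks mark genes on chromosome 8. Cdt1 reached the highest Max score (1315) and Mcm7 the highest Bio-Myc score (429), and 12 genes carry open symbols only.

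Among the genes of origin recognition and licensing, Bio-Myc was at 5 of 9 and Max at 7 of 9. Cdt1, which brings the Mcm ring to the origin, had a Bio-Myc score of 348 and a Max score of 1315. The score is the MACS p-value on a −log10 scale, multiplied by 10, so it measures how surely a peak differs from its control and not how many molecules are bound. Only 364 of the 3275 protein-coding genes with a Bio-Myc promoter peak scored higher than Cdt1, and its Max score was above those of 99.4% of the Max-bound coding genes. The gene (chr8:125091915-125097028) has 1 annotated TSS, which both peaks covered, and a second Max peak with a score of 239 began inside the gene.

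Orc2 had a Bio-Myc score of 269 and a Max score of 245. It was one of 3 replication genes where the Bio-Myc score was the larger of the pair. Its Bio-Myc peak (chr1:58560577-58562379) ran further into the gene than its Max peak, and the E-Box of Orc2 lay in that extension. The other subunits of the complex with a Bio-Myc peak had lower scores for both proteins. Orc3 had 146 for Bio-Myc and 153 for Max, Orc1, its largest subunit, 127 and 190, and Orc5 84.1 and 127. The Bio-Myc peak of Orc5 was the weakest at any replication gene, just above the limit of the list at 80.

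Orc6 and Gmnn had a Max peak alone, with scores of 326 and 227. Gmnn encodes geminin, the inhibitor of Cdt1, and its nearest Bio-Myc peak was 2710 kb away. Orc4 and Cdc6 had neither peak. For Orc4 the nearest Max peak was 1116 kb from a TSS, and for Cdc6, the ATPase that loads the Mcm ring together with Cdt1, it was 15 kb away with a score of 105.

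Within the helicase, Bio-Myc was at 4 of the 6 genes Mcm2 to Mcm7 (66.7%, 30 to 90.3%) and at 0 of the 5 genes Cdc45 and Gins1 to Gins4 (upper bound 43.4%), although Max was at 5 of 6 and 4 of 5 of them. These intervals overlap, so the counts are too small to separate the sets. Mcm7 had the highest Bio-Myc score of all replication genes, 429, with a Max score of 542. Only 224 of the Bio-Myc-bound coding genes scored higher than Mcm7. Its Bio-Myc peak (chr5:138612027-138613877) and its Max peak both extended over more than 1 kb and covered a TSS of the neighbouring Ap4m1, which is transcribed from the other strand.

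Mcm4 followed with a Bio-Myc score of 301 and a Max score of 233, and Mcm6 with 265 and 210. At both genes the Bio-Myc score was the larger one, as at Orc2. Mcm3 had 147 and 183. Mcm5 had a Max peak only, with a score of 269, and Mcm2 had neither, its nearest Max peak being 23.1 kb and its nearest Bio-Myc peak 433 kb away.

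The GINS complex joins Mcm2 to Mcm7 and Cdc45 in the moving helicase. Its genes had Max scores of 332 (Gins2), 272 (Gins4), 174 (Gins3) and 159 (Gins1). The Max peak of Gins1 did not reach the gene, as its edge was 326 bp upstream, and it covered a TSS of Abhd12 on the other strand. Cdc45 had neither peak, and its nearest Max peak was 24.5 kb away.

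Of the kinase and the other Mcm genes, Bio-Myc was at 2 of 4 and Max at 3 of 4. Dbf4, the regulatory subunit of the Cdc7 kinase, had a Bio-Myc score of 96.5 and a Max score of 281. Cdc7 itself had a Max peak alone, with a score of 258. Mcm8, which acts in repair by recombination, had 158 for Bio-Myc and 461 for Max. Mcm10, which helps to activate the helicase, had neither, and both nearest peaks were more than 100 kb away.

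Polymerase and primase genes carried the fewest peaks among the larger sets, with Bio-Myc at 3 of 11 (27.3%, 9.75 to 56.6%) and Max at 7 of 11 (63.6%, 35.4 to 84.8%). The interval of the Bio-Myc share includes the 14.6% of the other coding genes. Pole4, a histone-fold subunit of polymerase epsilon, had 233 for Bio-Myc and 423 for Max. These peaks covered an internal TSS of the gene (chr6:82568986-82655359, minus strand) and not its outermost one, near which a separate Max peak in an intron scored 590. Pold2, an accessory subunit of polymerase delta, had 158 and 321, and Pola2, the B subunit of polymerase alpha, 144 and 331.

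The catalytic subunits had no Bio-Myc peak. Pold1 had a Max score of 313 and Pola1 of 140, while Pole, the catalytic subunit of polymerase epsilon, had neither peak. Pold3 scored 144 and Pole2 90.6 for Max, the latter being the weakest Max peak of any replication gene, with its edge 13 bp short of the TSS. Prim1 and Prim2, the primase subunits, and Pole3 had neither peak. The nearest Bio-Myc peak to Prim1 was 8.35 kb away at a promoter of Naca, and the nearest to Pole3 was 4.35 kb away at a promoter of Alad.

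Of the clamp and its loader, Bio-Myc was at 2 of 6 and Max at 5 of 6. Rfc1, the large subunit of the loader, had a Bio-Myc score of 328 and a Max score of 682, the second highest Max score of the replication genes. Pcna, the clamp itself, had 126 for Bio-Myc and 196 for Max, with a second Max peak of 81.2 beside it. Rfc4 and Rfc5 both scored 155 for Max and Rfc3 scored 128, and none of the 3 had a Bio-Myc peak. Rfc2 had neither, and its nearest peaks of both kinds lay more than 50 kb away.

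Single-strand binding and maturation genes had Bio-Myc at 2 of 5 and Max at 3 of 5. Rpa1, the large subunit of replication protein A, had a Bio-Myc score of 101 and a Max score of 407, the largest ratio of Max to Bio-Myc among these genes (4.04). Rpa2 had 153 and 214, and Rpa3 a Max peak of 136 alone. Fen1, the flap endonuclease, and Lig1, which seals Okazaki fragments, had neither.

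**Figure D2:**
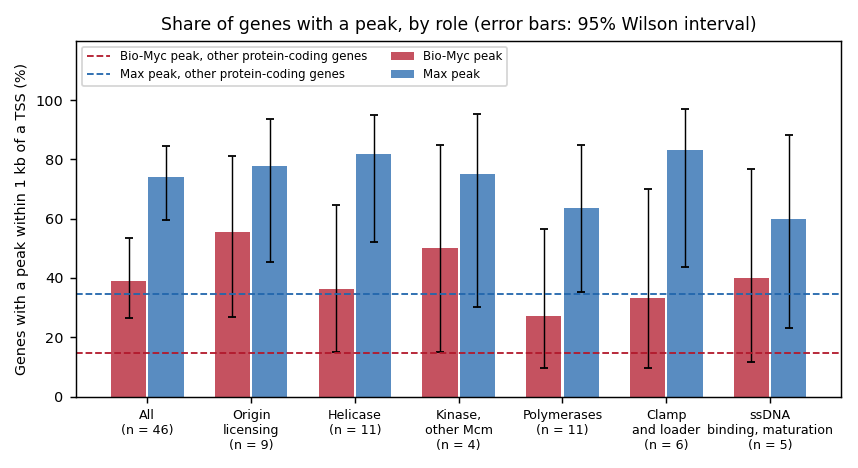
Share of genes in percent with a Bio-Myc peak (red) or a Max peak (blue) within 1 kb of a TSS for all 46 replication genes and for each role, with 95% Wilson intervals as error bars and dashed lines for the other protein-coding genes (14.6% and 34.7%). Every bar stands above its line, and the interval of the polymerases (27.3%, 9.75 to 56.6%) crosses the line for Bio-Myc.

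In every role the share with a peak was above that of the other coding genes, but for single roles the intervals were wide. For Bio-Myc the interval lay above 14.6% for licensing (55.6%, 26.7 to 81.1%), for the helicase (36.4%, 15.2 to 64.6%) and, narrowly, for the kinase set (50%, 15 to 85%), and it included 14.6% for the other 3 roles. For Max it lay above 34.7% for licensing (77.8%, 45.3 to 93.7%), the helicase (81.8%, 52.3 to 94.9%), the polymerases and the clamp (83.3%, 43.6 to 97%). The intervals of all 6 roles overlapped one another, so that no role could be told from another by its share.

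All 18 Bio-Myc peaks overlapped the Max peak of the same gene. Both peaks had been chosen for lying within 1 kb of a TSS of that gene, which by itself favours overlap. The Bio-Myc peaks had a median width of 1228 bp. The share that overlapped at the other genes is not given here, so the 18 of 18 cannot set the replication genes apart. The centres of the paired peaks were between 15 bp (Orc5) and 282 bp (Orc2) apart. Their median distance was 98.5 bp, compared with 110 bp at the other genes. The Bio-Myc peak covered a TSS at all 18 genes, as against 87.9% of the 3257 other Bio-Myc-bound genes. The Bio-Myc peak centre was within 100 bp of a TSS at 13 of 18 replication genes (72.2%) and at 38.2% of the others, and the Max centre at 20 of 34 (58.8%) and at 40.8%. The replication genes had more annotated TSSs, with a median of 4.5 per gene compared with 2, which shortens the distance to the nearest one, and its part in this difference was not tested.

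**Figure D3:**
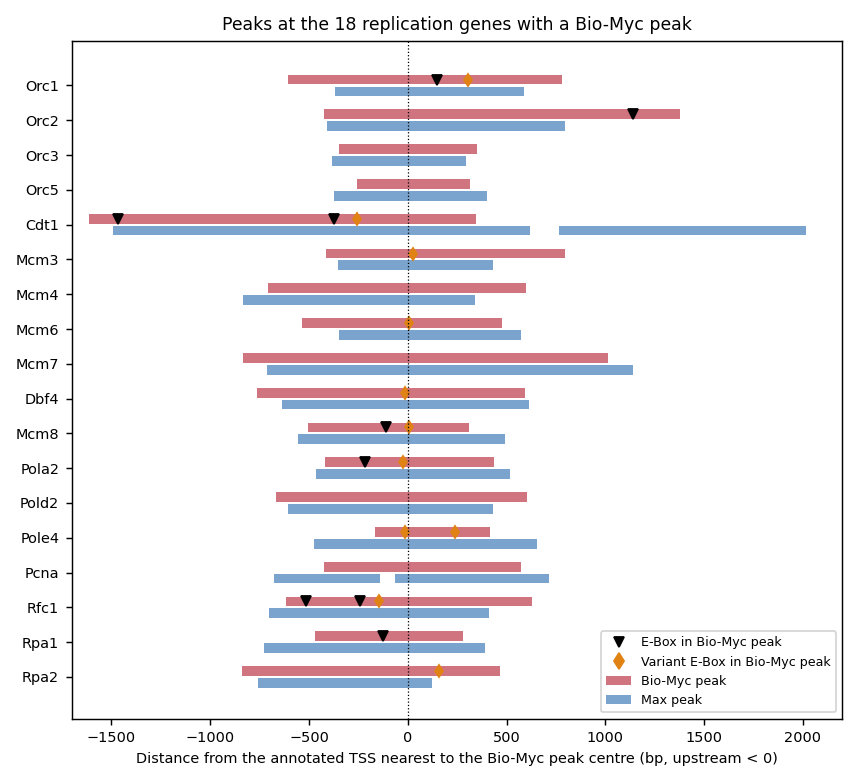
Extent of the promoter peaks of Bio-Myc (red) and Max (blue) at the 18 replication genes with both, in bp from the TSS nearest to the centre of the Bio-Myc peak, with triangles for each E-Box CACGTG and diamonds for each CACGCG in the Bio-Myc peak. Every red bar crosses 0 and overlaps a blue one, and 6 genes (Orc3, Orc5, Mcm4, Mcm7, Pold2 and Pcna) carry no symbol.

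Bio-Myc scores at the 18 genes ranged from 84.1 to 429 with a median of 155, beside a median of 143 at the other Bio-Myc-bound genes. Max scores at the 34 genes ranged from 90.6 to 1315 with a median of 230, beside 196. The ratio of the Max score to the Bio-Myc score had a median of 1.53 at the replication genes and 1.65 at the others. It was below 1 at Mcm4 (0.776), Mcm6 (0.793) and Orc2 (0.91). The lists were called against different controls from libraries of unknown size, so this ratio has no meaning as a ratio of occupancy, and only its order among genes can be read.

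Genes with both peaks had higher Max scores than genes with Max alone. The median was 263 at the 18 and 167 at the 16 replication genes, and 283 and 161 at the corresponding other genes. Bio-Myc was present at 1 of 6 Max-bound replication genes with a Max score under 145, at 8 of 15 between 145 and 269, and at 9 of 13 above 269. The shares of the other Max-bound genes in the same ranges were 17.2%, 33.7% and 57.9%. Over all Max-bound genes, Bio-Myc was found at 52.9% (36.7 to 68.5%) of the 34 replication genes and at 36.3% of the others. Spearman's rho between the scores was 0.58 over the 18 genes and 0.39 over the 2814 others, as a description across genes that share both libraries.

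**Figure D4:**
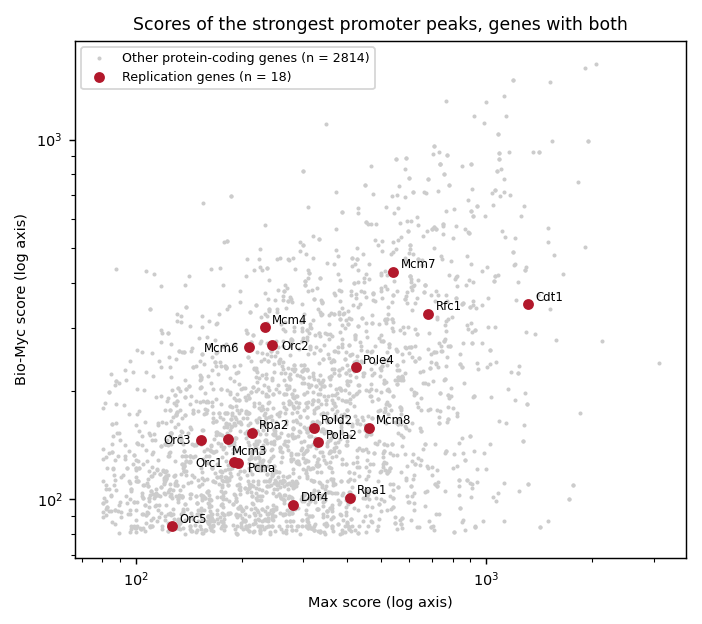
Bio-Myc score against Max score of the strongest promoter peaks on log axes, for the 18 replication genes with both peaks (red, named) and the 2814 other protein-coding genes with both (grey). The named points lie within the grey cloud, from Orc5 at 127 and 84.1 to Cdt1 at 1315 and 348 and Mcm7 at 542 and 429.

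Chromosome 8 carried an excess of Max peaks, 1357 of the 11570 in the list, and 6 replication genes lie on it (Orc6, Cdt1, Mcm5, Gins2, Gins3 and Gins4). All 6 had a Max peak and 1, Cdt1, had a Bio-Myc peak. Of the other coding genes on chromosome 8, 60.4% had a Max peak and 16.7% a Bio-Myc peak, whereas elsewhere these shares were 33.4% and 14.5%. Max scores of the 6 genes had a median of 299, beside 302 at the other genes of that chromosome. Thus 3 of the 4 GINS genes and Mcm5, with Max but no Bio-Myc, lie on this chromosome. Of its other coding genes, 43.9% had Max without Bio-Myc. Without chromosome 8, 28 of 40 replication genes (70%, 54.6 to 81.9%) had a Max peak and 17 of 40 (42.5%, 28.5 to 57.8%) a Bio-Myc peak. Max without Bio-Myc was then at 11 of 40 (27.5%, 16.1 to 42.8%), and the 21% of the other coding genes off chromosome 8 lies inside that interval.

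Many replication genes share their promoter with a gene on the opposite strand. A TSS of such a neighbour lay within 1 kb upstream of 22 of the 46 genes (47.8%), compared with 13.9% of other coding genes. The neighbour was itself protein-coding for 17 (37%, against 10.3%). The search ran from every annotated TSS, of which the replication genes had more (median 4.5 compared with 2). The part of this in the difference was not tested. At 7 of the 18 Bio-Myc-bound genes the peak also covered a TSS of another coding gene, namely Prpf38a at Orc1, Rars2 at Orc3, Prkdc at Mcm4, Ap4m1 at Mcm7, Slc25a40 at Dbf4, Trmt6 at Mcm8 and Smyd4 at Rpa1. At Orc2, Orc5 and Pcna the Bio-Myc peak covered a TSS of a noncoding neighbour (Gm15834, 1700030G06Rik and AV099323). None of these peaks can be assigned to either gene of the pair. The share of such peaks among the other Bio-Myc-bound genes is not given here, so the 7 of 18 has no background beside it. Among the replication genes without such a neighbour, Bio-Myc was at 8 of 24 (33.3%, 18 to 53.3%) and Max at 19 of 24 (79.2%, 59.5 to 90.8%), beside 11.6% and 30.2% of the other coding genes without one. With a neighbour the shares were 45.5% (26.9 to 65.3%) and 68.2% (47.3 to 83.6%), beside 32.8% and 62.4%. Both backgrounds with a neighbour lie inside these intervals, so at this number of genes no surplus could be detected there for either protein.

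Promoters of the replication genes were richer in CpG than those of the other coding genes. Myc and Max peaks are more frequent at CpG-rich promoters. The ratio of observed to expected CpG within 1 kb of the outermost TSS had a median of 0.61, compared with 0.467 at the other coding genes. A ratio of 0.6 or more was reached by 24 of the 46 replication genes (52.2%) and by 33.7% of the others. At promoters with a ratio of 0.6 or more, Bio-Myc was at 11 of 24 replication genes (45.8%, 27.9 to 64.9%) and at 29.6% of the 7531 other genes. Max was at 19 of 24 (79.2%, 59.5 to 90.8%) and at 62.6%. Both of these backgrounds lie inside the interval of the replication genes. At this number of genes no surplus over CpG-rich promoters could therefore be detected for either protein taken alone. Both proteins together were at 11 of 24 (45.8%, 27.9 to 64.9%) and at 26.3% of the other genes, a background just below the interval. Max without Bio-Myc was at 8 of 24 (33.3%, 18 to 53.3%) and at 36.3% of the other genes, which lies inside the interval. These comparisons cover only the 24 replication genes at or above 0.6. For those below that ratio, no comparison with other genes below it is given here. The part of CpG content in the shares over all 46 genes was not tested.

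The E-Box was no more frequent in the peaks of replication genes than in those of other genes. CACGTG, which reads the same on both strands, was in 7 of 18 Bio-Myc promoter peaks (38.9%, 20.3 to 61.4%) and in 49.9% of the 2785 peaks at other coding genes. The word CACGCG, searched on both strands, was in 10 of 18 (55.6%, 33.7 to 75.4%) and in 56.1%. At 5 genes without CACGTG the Bio-Myc peak held CACGCG, read as CACGCG or CGCGTG on the strand of the gene, and the word nearest to the peak centre is shown for each.

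Mcm3, chr1:20810331-20810336, exon, 23 bp downstream of a TSS: ccaaggcggtgtCACGCGtttccggactgt

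Mcm6, chr1:130256225-130256230, exon, 3 bp downstream: cggaaggagctaCGCGTGgaacctgcggcc

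Dbf4, chr5:8422727-8422732, outside the gene, 16 bp upstream: gggcgccgcggtCGCGTGacgcgttttcaa

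Pole4, chr6:82602623-82602628, annotated exon, 114 bp upstream: tctttatcctggCGCGTGccgcggtgcgac

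Rpa2, chr4:132324405-132324410, intron, 114 bp downstream: cgtggggagagtCACGCGagggtgttggga

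Neither word was in the Bio-Myc peaks of Orc3, Orc5, Mcm4, Mcm7, Pold2 and Pcna, although Mcm7 and Mcm4 had the first and the fourth highest Bio-Myc scores. At least 1 of these words was in 12 of 18 peaks (66.7%), compared with 78.7% of the peaks at other genes.

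Max peaks without Bio-Myc held CACGTG at 3 of 16 replication genes (18.8%, 6.59 to 43%), compared with 29.9% of 4490 such peaks elsewhere. They held CACGCG at 1 of 16 (6.25%, 1.11 to 28.3%), namely Gins1, compared with 45.3%. The window within 1 kb of the outermost TSS holds much of the same sequence, so its counts are not a second, separate observation. There CACGCG was at 11 of the 18 Bio-Myc-bound replication genes (61.1%, 38.6 to 79.7%) and at 60.3% of the other Bio-Myc-bound genes, but at 0 of the 16 with Max alone, with an upper bound of 19.4%, where the other genes with Max alone had 51.8%. Of the 12 replication genes without a peak, 4 held the word (33.3%, 13.8 to 60.9%), compared with 20.5% of the other genes without a peak. Over all 46 replication genes it was at 32.6% (20.9 to 47%), compared with 33.2% of the other coding genes. At promoters with a CpG ratio of 0.6 or more CACGCG was at 45.8% (27.9 to 64.9%) and 61.3%, the latter inside the interval. CACGTG was within the same window at 41.3% (28.3 to 55.7%) of the replication genes and at 27.8% of the others. At promoters with a CpG ratio of 0.6 or more these shares were 33.3% (18 to 53.3%) and 34.4%.

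E2F words were more frequent at the replication genes than at other genes. At least 1 of TTTCCCGC, TTTGGCGC, TTTGCCGC and TTTCGCGC, searched on both strands, lay within 1 kb of the outermost TSS at 24 of 46 replication genes (52.2%, 38.1 to 65.9%), compared with 10.3% of the other coding genes and 17.8% of those with CpG-rich promoters. The 24 genes held 38 such words. Of these, 23 were within 100 bp of an annotated TSS and 30 inside a Max promoter peak of the gene. Such counts are not given for the words of other genes, and 34 of the 46 replication genes had a Max peak. None of the 38 words shared a base with CACGTG or CACGCG, and 6 overlapped another E2F word and were counted separately. All of Mcm2 to Mcm7 held at least 1. The word nearest to a TSS of each is shown on the strand of the gene with 11 bases to either side and the E2F word in capitals.

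Mcm2, chr6:88848685-88848692, exon, 82 bp downstream of a TSS: cgtggtctagtTTTCGCGCgaaaaccggtg

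Mcm3, chr1:20810348-20810355, exon, 4 bp downstream: acttgggaagtTTTGGCGCcaaggcggtgt

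Mcm4, chr16:15637564-15637571, outside the gene, 78 bp upstream: agctacacgccTTTGCCGCtgtgattggcc

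Mcm5, chr8:77633460-77633467, exon, 33 bp downstream: ggaggctggttTTTCCCGCgaaagtcggct

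Mcm6, chr1:130256322-130256329, outside the gene, 96 bp upstream: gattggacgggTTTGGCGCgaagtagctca

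Mcm7, chr5:138613088-138613095, annotated exon, 49 bp upstream: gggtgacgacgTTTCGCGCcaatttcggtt

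The E2F words were found in all 3 classes of replication genes, with intervals that overlap. They were at 10 of 18 genes with Bio-Myc (55.6%, 33.7 to 75.4%), at 11 of 16 with Max alone (68.8%, 44.4 to 85.8%) and at 3 of 12 with neither peak (25%, 8.89 to 53.2%), the last being Cdc6, Mcm2 and Pole. The shares of the other coding genes in the same classes were 18.6%, 14.1% and 7.06%. In the peaks themselves, an E2F word was in 11 of 18 Bio-Myc peaks (61.1%, 38.6 to 79.7%), compared with 14.8% at other genes, and in 9 of 16 Max peaks without Bio-Myc (56.2%, 33.2 to 76.9%), compared with 9.98%. The peaks at replication genes were wider, with a median of 1228 bp compared with 1060 bp for Bio-Myc and 904 bp compared with 820 bp for Max alone, and the part of width in these shares was not tested. A word in the sequence does not show that the factor was bound there.

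**Figure D5:**
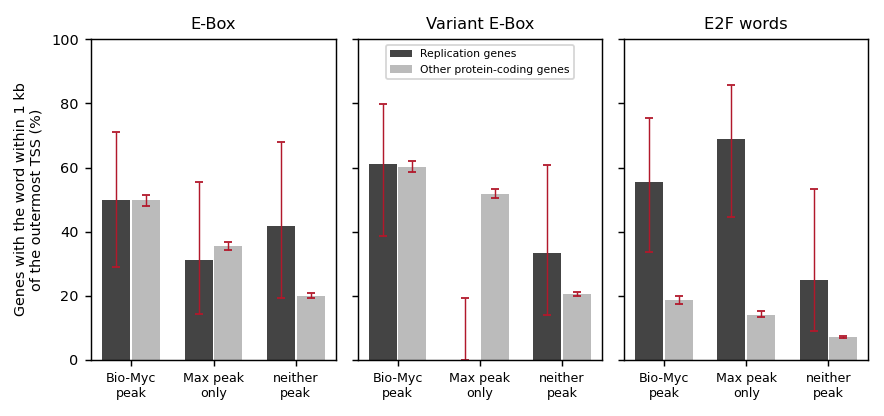
Share of genes in percent with an E-Box (CACGTG), its variant (CACGCG) or any of 4 E2F words within 1 kb of the outermost TSS, for replication genes (dark) and other protein-coding genes (light) with a Bio-Myc peak, with a Max peak only and with neither, with 95% Wilson intervals as error bars. The dark bars exceed the light ones in all 3 classes for E2F words (55.6%, 68.8% and 25% compared with 18.6%, 14.1% and 7.06%), and the variant E-Box is at 0 of 16 replication genes with Max alone.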

How the data were processed

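ChIP-seq of Bio-Myc, a mock, Max and IgG was carried out in mouse E14 ESCs, 1 library each. The authors sequenced on an Illumina HiScanSQ, aligned to mm9 in Bowtie 0.12.7, keeping reads that mapped once with at most 2 mismatches, removed duplicates and ran MACS 1.4.1 against the mock or IgG library. CASAVA 1.8 is named in the submitters' processing notes. The deposited lists hold 3962 Bio-Myc and 11570 Max peaks, and the score the authors deposited for each is 10 times −log10 of its p-value, from 80 (1e-08) upwards and capped at 3100. Unique mapping removes repeats, and the number of peaks depends on a read depth that the lists do not give.

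A peak was assigned to a gene when it came within 1 kb of any TSS in GENCODE M1, and the highest score was used. Words and CpG ratios were read from the mm9 sequence with pysam 0.24.0, and intervals were computed with Python 3.11.15. The calculations were tested on simulated data, where 13 of 13 steps returned the known answer. Every listed gene is named, and neighbours and 5 other replication factors by rule. The genes, lists and words were chosen with earlier results of these data known. Alternatives changed the window, the score limit, the gene set and the peak part searched.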

Additional observations from a re-analysis of the deposited data

How the results depend on the processing

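The share of replication genes with a Bio-Myc peak was within its interval (main value 39.1%) under 9 of 10 alternatives, that with a Max peak (73.9%) under 10 of 11 and that with both under 9 of 11. These alternatives changed the window from TSS coverage to 5 kb, used the outermost TSS or the peak centre, left out chromosome 8 or head-to-head genes, or raised the score limit. At a p-value of 1e-15 or lower, Bio-Myc and both fell to 21.7%, beside 6.81% and 5.82% of the other coding genes. With the Max list shortened to the length of the Bio-Myc list, Max was at 39.1% and both at 23.9%, beside 15.4% and 8.3%, so that the number of genes with Max alone depends on the length of its list. CACGTG was in 16.7% of the Bio-Myc peaks when only the central 200 bp were searched (17.9% at other genes), and CACGTG or CACGCG in 66.7% (78.7%). The background share for Bio-Myc, 14.6% over all other coding genes, was 29.6% over those with CpG-rich promoters and 36.3% over those with a Max peak. No paired analysis was possible because each ChIP has 1 library, and for the same reason no library could be left out. A gene without a peak was not detected at this score limit and at an unknown depth, which does not show that the protein is absent.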

Other observations

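Of 30 other genes that act at or near the replication fork, all found in the annotation, 13 had a Bio-Myc promoter peak (43.3%, 27.4 to 60.8%, against 14.6% of the coding genes outside the 46). A Max peak was at 19 (63.3%, 45.5 to 78.1%, against 34.7%) and both were at 9 (30%, 16.7 to 47.9%, against 12.6%). Bio-Myc without Max was at 4 (13.3%, 5.31 to 29.7%, against 1.98%), a class that held 0 of the 46 genes of the report (upper bound 7.71%). The intervals of these sets overlap. The 5 with the highest Bio-Myc scores were Chtf8, Ssrp1, Rnaseh2b, Mtbp and Dnmt1. Chtf8, a subunit of an alternative clamp loader, had a Bio-Myc score of 584 and a Max score of 750, with 3 CACGTG words in its Bio-Myc peak, and it lies on chromosome 8. Ssrp1, a subunit of the histone chaperone FACT, had 291 and 207, and Rnaseh2b, a subunit of the enzyme that removes ribonucleotides from DNA, 255 and 228. Mtbp, which acts in the firing of origins, had 255 for Bio-Myc and no Max peak. Dnmt1, the maintenance DNA methyltransferase, had 157 and 306.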
